A study of Mus musculus with 8 samples.

Results

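The 10 genes described here encode the giant spring protein titin (Ttn), 4 proteins of the Z-disc (Ldb3, Myoz2, Tcap and Csrp3), the 3 muscle ankyrin repeat proteins (Ankrd1, Ankrd2 and Ankrd23) and the 2 Xin actin-binding repeat proteins (Xirp1 and Xirp2). They were taken by name from the 50599 records measured in each of 8 mouse heart libraries, and all 10 were found. In Lrpprc knockout hearts, Ankrd1 rose 4.95-fold and Xirp2 rose 3.21-fold, while Ttn fell to 0.731 and Ldb3 to 0.695 of their wildtype levels, with 4 hearts in each group. Xirp1 was called higher and Tcap lower, both with groups that overlapped. Csrp3, Myoz2, Ankrd23 and Ankrd2 did not pass the test.

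RNA came from hearts of 12-week-old male C57BL/6N mice, 4 controls and 4 Lrpprc knockouts, with each heart a separate library. The control animals are labelled wildtype. For its footprinting mice the paper gives the controls as Lrpprc loxP/loxP and the knockouts as Lrpprc loxP/loxP, Cre+. Its RNA-Seq methods say only control and Lrpprc knockout. The deletion was specific to heart and skeletal muscle, and the Cre driver is not given in the sources used here. Lrpprc encodes a mitochondrial RNA-binding protein. The question was how each of these nuclear genes differed in mRNA level between the 2 groups.

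The Z-disc anchors actin filaments at the ends of each sarcomere, the contractile unit of striated muscle. Titin spans from the Z-disc to the M-band in the middle of the sarcomere, gives the relaxed muscle its elasticity, and holds binding sites for proteins that report stretch. The muscle ankyrin repeat proteins bind the elastic part of titin and also enter the nucleus, and Ankrd1 is a widely used marker of cardiac stress. The Xin proteins sit at the intercalated discs, the junctions between heart muscle cells, and crosslink actin.

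The libraries held 35218541 to 47743376 expected counts, which are read counts estimated by RSEM that need not be whole. Lrpprc itself averaged 3665 ± 216 normalised counts over the 4 wildtype libraries and 577 ± 48.6 over the 4 knockout libraries (SD), without overlap. Mitochondrial rRNA took 44.01 to 46.86% of the counts in the wildtype and 65.63 to 67.84% in the knockout, so the scaling of the libraries matters for every fold change below. Normalised counts are scaled by the median-of-ratios method of DESeq2 and corrected for the length of the isoforms in each library. Of the 19959 genes with an adjusted p, 33.7% were called at an adjusted p under 0.05 in either direction, 18.2% higher and 15.5% lower in the knockout. Among genes averaging at least 1000 normalised counts, a level that 9 of the 10 genes reach, 58.1% were called. The 3 genes called higher and 3 called lower of 10, with a median log2 fold change of 0.14 against 0.01 for all genes tested, are to be read against those shares. In RNA from heart tissue, fewer cells of a type and less RNA per cell cannot be told apart.

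The promoters of the genes with the largest rises (Ankrd1 and Xirp2) and of those with non-overlapping falls (Ttn and Ldb3) are shown because these 4 genes separate the groups completely. Each is the RefSeq window of 300 bases on GRCm38.p6, from 250 bases before to 50 after the annotated start, written 5′ to 3′ on the strand of the gene, with letters that match a searched motif in capitals. The windows lie at chr19:36119795-36120094 (minus strand) for Ankrd1, chr2:67445752-67446051 (plus strand) for Xirp2, chr2:76982498-76982797 (minus strand) for Ttn and chr14:34588632-34588931 (minus strand) for Ldb3, which has a second RefSeq start whose window overlaps this one.
Ankrd1: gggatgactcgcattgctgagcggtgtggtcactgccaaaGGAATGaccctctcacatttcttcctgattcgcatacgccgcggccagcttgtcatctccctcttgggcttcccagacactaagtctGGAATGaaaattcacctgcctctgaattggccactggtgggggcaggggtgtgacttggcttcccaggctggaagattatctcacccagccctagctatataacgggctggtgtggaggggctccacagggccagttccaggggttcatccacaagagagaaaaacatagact
Xirp2: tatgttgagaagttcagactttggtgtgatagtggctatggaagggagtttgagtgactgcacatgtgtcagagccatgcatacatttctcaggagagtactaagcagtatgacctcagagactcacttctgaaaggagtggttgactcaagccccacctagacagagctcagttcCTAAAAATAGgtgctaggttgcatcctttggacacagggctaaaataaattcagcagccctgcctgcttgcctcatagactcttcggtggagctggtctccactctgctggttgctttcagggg
Ttn: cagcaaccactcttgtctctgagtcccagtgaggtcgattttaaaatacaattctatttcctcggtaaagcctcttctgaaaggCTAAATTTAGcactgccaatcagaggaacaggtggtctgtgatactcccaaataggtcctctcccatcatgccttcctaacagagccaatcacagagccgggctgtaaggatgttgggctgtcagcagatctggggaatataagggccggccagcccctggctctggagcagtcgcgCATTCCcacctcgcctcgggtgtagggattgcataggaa
Ldb3: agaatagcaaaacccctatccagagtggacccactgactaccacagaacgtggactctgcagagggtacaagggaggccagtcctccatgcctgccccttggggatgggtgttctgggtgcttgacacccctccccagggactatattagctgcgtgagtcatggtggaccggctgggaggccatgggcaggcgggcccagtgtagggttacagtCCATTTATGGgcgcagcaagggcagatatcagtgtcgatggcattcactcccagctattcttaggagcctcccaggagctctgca

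Motifs known from muscle and stress promoters were searched on both strands. They were the M-CAT motif CATTCC of the TEAD factors, the MEF2 motif and the CArG box of serum response factor, the latter 2 by their usual consensus, and the ATF4 element TGATGNAA. The Ankrd1 window held CATTCC at 2 positions, both on the opposite strand and so read GGAATG in the letters above, starting 210 and 123 bases before the start site. The Xirp2 window held a MEF2 match 74 bases before the start, and the Ttn window held a MEF2 match 166 bases before and an M-CAT match in its first transcribed bases, at position 12. The Ldb3 window held a CArG match 35 bases before the start. Of all 32851 promoter windows, 14.7% held the M-CAT letters, 3.19% a MEF2 match, 1.63% a CArG match and 3.97% the ATF4 letters. RefSeq windows were matched for 8 of the 10 genes, the others being Tcap and Xirp1, and among the 8 the M-CAT letters were in 3 genes (Ttn, Ankrd1 and Ankrd23), MEF2 in 3 (Ttn, Myoz2 and Xirp2), CArG in 1 and the ATF4 letters in 0. These 8 genes have 11 windows, since Csrp3, Ankrd23 and Ldb3 have more than 1 annotated start, and per window the matches were 4 for M-CAT, 3 for MEF2, 2 for CArG (in overlapping windows) and 0 for ATF4. A match describes the letters of the window only. With so few genes, matches were present both in genes that rose and in genes that fell.

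Ttn (ENSMUSG00000051747.14, GRCm38 chromosome 2 from 76703980 to 76982547, minus strand) was the most abundant of the genes in the wildtype. Its normalised counts were 1454564, 1385162, 1348220 and 1326458 in wildtype libraries 1 to 4 and 1134501, 973560, 1019429 and 902964 in knockout libraries 1 to 4. Every knockout library lay below every wildtype library. The mean went from 1379000 ± 56100 (SD, n = 4) to 1008000 ± 97200 (SD, n = 4), which is -0.45 ± 0.0942 (SE) in log2 (DESeq2, adjusted p = 1.38e-05) with a 95% interval from -0.64 to -0.27. Ttn alone took 10.164 to 10.464% of all counts of nuclear protein-coding genes in the wildtype and 7.005 to 8.478% in the knockout. That share, which is itself a scaling by the nuclear protein-coding total, also did not overlap between the groups. Scaled by total counts without mitochondrial rRNA, however, the log2 fold change of Ttn was -0.03 and was not called (DESeq2, adjusted p = 0.83), in a scaling where the median gene itself moved up by 0.425. That total still held the mitochondrial mRNAs, which the paper reports as less stable in the knockout, except for mt-Nd6. The part of these mRNAs in the shift was not tested.

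**Figure D1:**
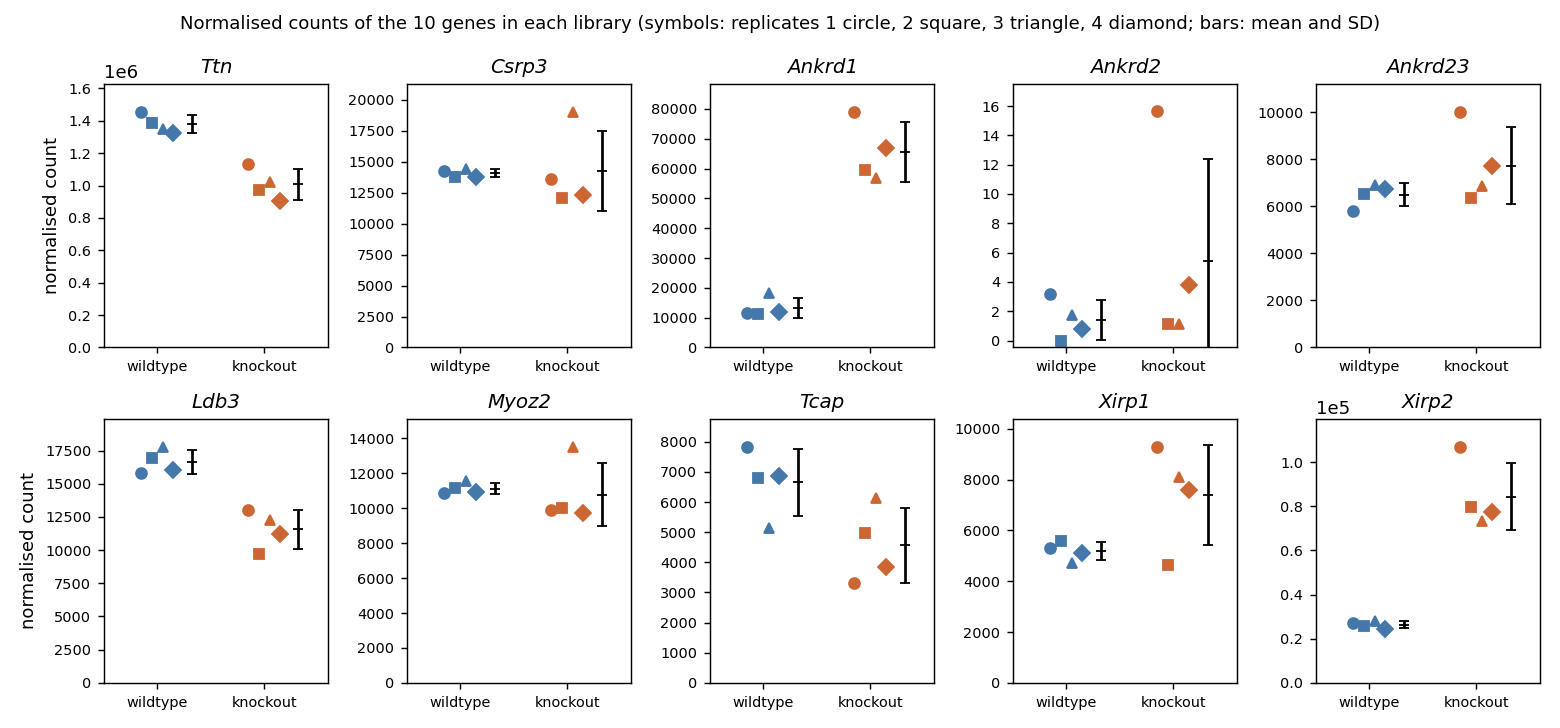
Normalised counts (vertical axis, from 0, each gene on its own scale) of the 10 genes in the 4 wildtype (blue) and 4 knockout (orange) libraries, with symbols for replicates 1 to 4 and bars for the mean and SD (the lower knockout bar of Ankrd2 runs past the axis). Groups are apart for Ttn, Ankrd1, Ldb3 and Xirp2 and overlap for the others, and knockout library 1 (circle) is the highest knockout library for 7 of the 10 genes.

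Ldb3 (ENSMUSG00000021798.13, chromosome 14 from 34526603 to 34588682 on the minus strand) encodes Cypher, also called ZASP, a PDZ-LIM protein that binds alpha-actinin and is needed to keep Z-discs intact under load. Its normalised counts were 15831, 16929, 17745 and 16040 in the wildtype libraries and 13050, 9709, 12252 and 11210 in the knockout libraries. All knockout libraries lay below the wildtype ones. The mean fell from 16640 ± 879 (SD, n = 4) to 11560 ± 1440 (SD, n = 4), that is by -0.53 ± 0.112 (SE) in log2 (DESeq2, adjusted p = 2.11e-05). Without the correction for isoform length the log2 fold change was -0.35 (DESeq2, adjusted p = 0.00417), and under scaling by total counts minus mitochondrial rRNA it was -0.1 and not called (DESeq2, adjusted p = 0.446).

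Tcap (ENSMUSG00000007877.2, chromosome 11 from 98383811 to 98384953 on the plus strand) encodes telethonin, the small cap that joins the ends of titin molecules at the Z-disc. Its normalised counts were 7819, 6802, 5153 and 6873 in the wildtype and 3328, 4968, 6138 and 3855 in the knockout. The lowest wildtype library and the highest knockout library, both with replicate number 3, overlapped. The mean was 6662 ± 1110 in the 4 wildtype libraries and 4572 ± 1250 in the 4 knockout libraries (SD), and they differed by -0.54 ± 0.2 (SE) in log2 (DESeq2, adjusted p = 0.0229). The call was lost when wildtype library 1, 2 or 4 or knockout library 1 or 4 was left out, with values of -0.46, -0.53, -0.53, -0.42 and -0.47 respectively (DESeq2, adjusted p from 0.0642 to 0.104). Total counts without mitochondrial rRNA gave -0.13 (DESeq2, adjusted p = 0.63).

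Csrp3 (ENSMUSG00000030470.15, chromosome 7 from 48830398 to 48848033 on the minus strand) encodes muscle LIM protein, which binds telethonin and alpha-actinin at the Z-disc. It counted 14292, 13812, 14395 and 13779 in the wildtype and 13609, 12080, 19034 and 12290 in the knockout. Knockout library 3 stood above all other libraries and the other 3 knockout libraries stood below all wildtype ones. The log2 fold change was 0.02, with a 95% interval from -0.28 to 0.32 (DESeq2, adjusted p = 0.943), and was -0.15 without knockout library 3 (DESeq2, adjusted p = 0.096).

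Myoz2 (ENSMUSG00000028116.13, chromosome 3 from 123006206 to 123035015 on the minus strand) encodes calsarcin-1, which tethers the phosphatase calcineurin to the Z-disc. Its normalised counts had a similar pattern, with 10861, 11169, 11560 and 10903 in the wildtype and 9874, 10020, 13488 and 9726 in the knockout. Knockout library 3 was again the highest of the 8 and the other knockout libraries were the lowest. The log2 fold change was -0.05, with an interval from -0.29 to 0.2 (DESeq2, adjusted p = 0.822). Leaving out knockout library 3 gave -0.17, which passed the threshold (DESeq2, adjusted p = 0.0177).

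For Tcap too, knockout library 3 was the highest knockout library. Knockout library 3 also had the lowest summed level of atrial marker genes (Myl4, Myl7, Sln and Bmp10), 978 normalised counts per kilobase against 3810 to 6289 in the other knockout libraries and 13870 to 18560 in the wildtype. It had the lowest knockout sums for fibroblast (8060), smooth muscle (1056), endothelial (2525) and macrophage markers (1589) and the highest for cardiomyocyte (442600) and erythroid markers (83450). The part of these differences in the values of Csrp3, Myoz2 and Tcap was not tested.

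Ankrd1 (ENSMUSG00000024803.8, chromosome 19 from 36111961 to 36120099 on the minus strand) encodes CARP, the cardiac ankyrin repeat protein. Its normalised counts were 11711, 11106, 18386 and 11739 in wildtype libraries 1 to 4 and 79000, 59418, 56703 and 67029 in knockout libraries 1 to 4. The lowest knockout library was well above the highest wildtype library, number 3, which itself stood apart from the other wildtype libraries. The mean rose from 13240 ± 3450 (SD, n = 4) to 65540 ± 9980 (SD, n = 4), a change of 2.31 ± 0.183 (SE) in log2 (DESeq2, adjusted p = 2.24e-34). Its rise stayed between 2.21 and 2.51 on the log2 scale when any single library was left out, and between 2.01 and 2.74 under both total-count scalings.

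Ankrd23 (ENSMUSG00000067653.12, chromosome 1 from 36530188 to 36536883 on the minus strand) encodes DARP, the diabetes-related ankyrin repeat protein. It counted 5789, 6540, 6897 and 6730 in the wildtype and 10020, 6358, 6861 and 7715 in the knockout. Knockout libraries 2 and 3 lay within the wildtype range, and libraries 1 and 4 above it. The mean was 6489 ± 489 in the 4 wildtype libraries and 7739 ± 1620 in the 4 knockout libraries (SD), and the log2 fold change of 0.25 had a 95% interval from -0.04 to 0.55 (DESeq2, adjusted p = 0.194). Without knockout library 1 it was 0.11 (DESeq2, adjusted p = 0.514). Its exons share 2109 bases on the same strand with the record Gm42417, whose counts cannot be fully told apart from those of Ankrd23 but averaged only 4.6 and 6.52 normalised counts in the 2 groups.

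Ankrd2 (ENSMUSG00000025172.2, chromosome 19 from 42036000 to 42045110 on the plus strand) encodes ARPP, the member of the family typical of slow skeletal muscle. Before scaling its highest count was 3 among the wildtype libraries and 14 among the knockout libraries. Its normalised counts were 3.18, 0, 1.73 and 0.8 in the wildtype and 15.65, 1.16, 1.15 and 3.76 in the knockout. Knockout libraries 2 and 3 lay within the wildtype range, and no difference was detectable at this depth (DESeq2, adjusted p = 0.225). Skeletal muscle markers were near absent as well, since 7 of 10 (among them the fast myosin genes Myh1, Myh2 and Myh4) had at most 10 counts in every library and no value exceeded 39.14 normalised counts. The other 3 were called at these low levels, Tnnt3 higher and Tnni2 and Atp2a1 lower (DESeq2), and are named after their values were seen.

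Xirp2 (ENSMUSG00000027022.13, chromosome 2 from 67446002 to 67526614 on the plus strand) encodes myomaxin. Its normalised counts were 27045, 25828, 27940 and 24481 in the wildtype and 106698, 79726, 73446 and 77617 in the knockout. Every knockout library was above every wildtype library. The mean rose from 26320 ± 1500 (SD, n = 4) to 84370 ± 15100 (SD, n = 4), or by 1.68 ± 0.133 (SE) in log2 (DESeq2, adjusted p = 1.52e-34). It remained called under every alternative scaling and without any single library, with values from 1.38 to 2.11.

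Xirp1 (ENSMUSG00000079243.3, chromosome 9 from 120013755 to 120023598 on the minus strand) encodes Xin, the other member of the family. It counted 5314, 5570, 4731 and 5127 in the wildtype and 9270, 4639, 8083 and 7574 in the knockout. Knockout library 2 was the lowest of all 8 libraries, while the other 3 knockout libraries were the highest. The mean was 5186 ± 353 in the 4 wildtype libraries and 7391 ± 1970 in the 4 knockout libraries (SD), and they differed by 0.51 ± 0.189 (SE) in log2 (DESeq2, adjusted p = 0.0232). The call was lost without wildtype library 1, 3 or 4 or knockout library 1 or 4, where the value was 0.52, 0.47, 0.51, 0.39 and 0.5 respectively (DESeq2, adjusted p from 0.0559 to 0.091), and under total-count scaling, which gave 0.21 (DESeq2, adjusted p = 0.384). Without knockout library 2 it was 0.68 (DESeq2, adjusted p = 4.91e-08).

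The groups did not overlap for 4 of the 10 genes, Ttn, Ldb3, Ankrd1 and Xirp2. Among genes averaging at least 1000 normalised counts, 55.6% had groups that did not overlap.

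**Figure D2:**
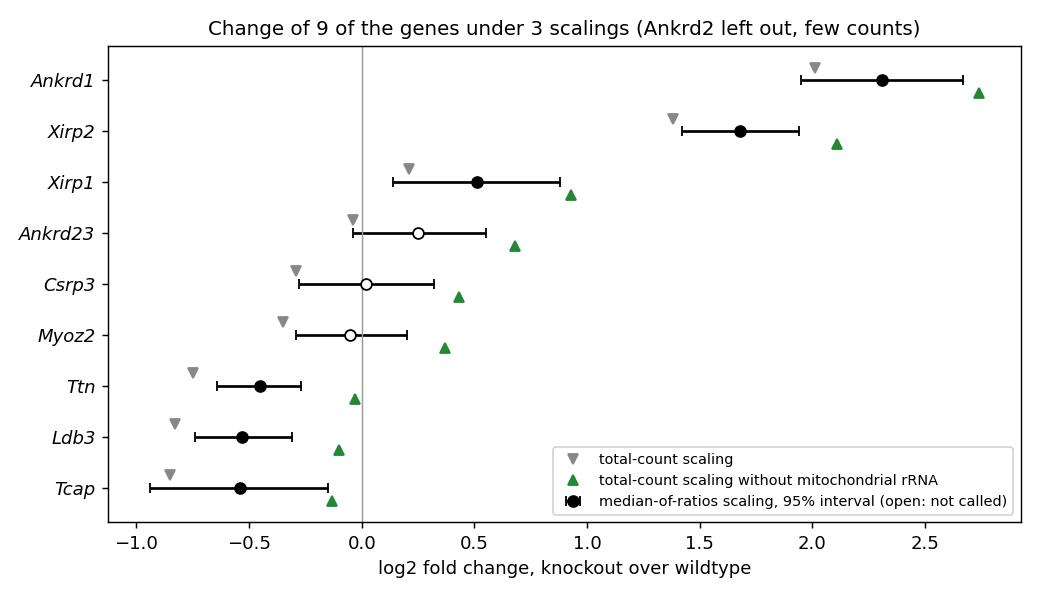
Log2 fold change (horizontal axis, knockout over wildtype) of 9 genes under median-of-ratios scaling with 95% intervals (circles, open where not called), total-count scaling (grey triangles) and total-count scaling without mitochondrial rRNA (green triangles). Ankrd1 and Xirp2 lie to the right of 0 under all 3, whereas Ttn, Ldb3 and Tcap move to between -0.13 and -0.03 under the last, and Ankrd23, Csrp3 and Myoz2 lie on both sides of 0.

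The scalings moved all genes together. The median log2 fold change over 15754 genes was 0.019 with median-of-ratios scaling, -0.277 with total counts and 0.444 with total counts minus mitochondrial rRNA. Relative to that median gene, Ttn was at -0.47, -0.48 and -0.47 in the 3 scalings in this order, Ldb3 at -0.54, -0.55 and -0.55, and Tcap at -0.56, -0.57 and -0.57. Ankrd1 was at 2.29 and Xirp2 at 1.66 in each, and Xirp1 at 0.49, 0.48 and 0.49. A scaling applies 1 factor per library to all genes, so the order of the genes was bound to be kept. What the scaling set was the position of 0. Csrp3, at 0, -0.02 and -0.01, and Myoz2, at -0.06, -0.07 and -0.07, lay close to the median gene throughout. Tested against 0 within each scaling, these 2 genes were called lower with total counts, at -0.29 (DESeq2, adjusted p = 0.0435) and -0.35 (DESeq2, adjusted p = 0.00234), and higher with total counts minus mitochondrial rRNA, at 0.43 (DESeq2, adjusted p = 0.00161) and 0.37 (DESeq2, adjusted p = 0.000485). Ankrd23 was at -0.04 and 0.68 in the same scalings and was called in the latter (DESeq2, adjusted p = 6e-05).

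Ratios between well-counted genes of a family within a library hardly depend on the scaling, since it cancels apart from the added pseudocount. The log2 ratio of Ankrd1 to Ankrd23, each per kilobase, was 1.18, 0.93, 1.58 and 0.96 in the wildtype libraries and 3.14, 3.39, 3.21 and 3.28 in the knockout libraries. Its mean went from 1.16 ± 0.298 (SD, n = 4) to 3.25 ± 0.105 (SD, n = 4), a difference of 2.09 without overlap (exact permutation test, two-sided p = 0.0286, 0.0572 after Benjamini-Hochberg adjustment over 4 ratios). The log2 ratio of Xirp1 to Xirp2 was -1.29, -1.15, -1.5 and -1.2 in the wildtype and -2.47, -3.04, -2.12 and -2.3 in the knockout. It differed by -1.2 between means of -1.29 ± 0.155 (SD, n = 4) and -2.48 ± 0.399 (SD, n = 4), again without overlap (exact permutation test, two-sided p = 0.0286, adjusted 0.0572). With 4 libraries against 4, 0.0286 is the smallest p these permutations can give, so neither ratio could pass 0.05 after adjustment unless at least 3 of the 4 ratios reached it. The ratios of Ankrd1 to Ankrd2 and of Ankrd2 to Ankrd23, which rest on the few counts of Ankrd2, differed by 1.27 and 0.83 (exact permutation test, two-sided p = 0.171 and 0.343, adjusted 0.228 and 0.343). Those last ratios moved with the scale and the pseudocount, to 2.06 and 0.02 with TPM and to 0.44 and 1.65 with a pseudocount of 0.1. Leaving out 1 library at a time put the first between 0.88 and 1.82 and the second between 0.31 and 1.22.

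**Figure D3:**
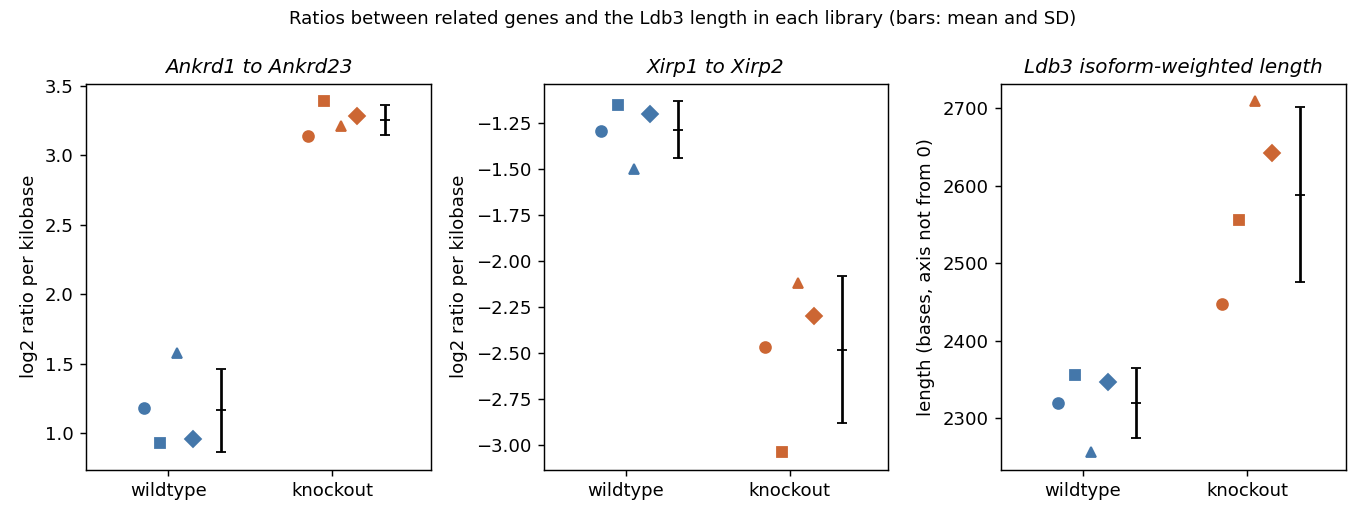
Log2 ratio per kilobase of Ankrd1 to Ankrd23 (left) and of Xirp1 to Xirp2 (middle), and the isoform-weighted length of Ldb3 in bases (right, axis not from 0), in each of the 4 wildtype and 4 knockout libraries, with the mean and SD. None of the 3 panels has overlapping groups, and the Ankrd1 to Ankrd23 ratio lies between 0.93 and 1.58 in the wildtype and between 3.14 and 3.39 in the knockout.

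The length that RSEM gives a gene is the mean of its transcripts weighted by their estimated abundance, so it moves when isoform use moves. Ldb3 has 5 transcripts of 1586 to 5119 bases in the annotation. Its weighted length was 2320, 2356, 2256 and 2346 bases in the wildtype and 2447, 2556, 2709 and 2642 bases in the knockout. Each knockout library was above all wildtype libraries, with means of 2320 ± 45.2 (SD, n = 4) and 2588 ± 114 (SD, n = 4) bases. The log2 ratio of 0.157 had a standard error of 0.0333 and did not pass the threshold over all genes (limma, unadjusted p = 0.00221, adjusted p = 0.086). Of 8345 genes tested for length, 1.15% were called, and Ldb3, Ttn, Csrp3, Ankrd23, Myoz2 and Xirp2, the genes described here whose length could be tested, were not among them.

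Ttn, with 25 annotated transcripts of 271 to 106824 bases, had weighted lengths of 44310 ± 859 bases in the 4 wildtype libraries and 44200 ± 1110 in the 4 knockout libraries (SD, limma, adjusted p = 0.985). The elastic part of titin is set by alternative splicing, and a length averaged over transcripts is only a coarse reading of it. Csrp3, Ankrd23 and Myoz2 had adjusted p values of 0.805, 0.962 and 0.595 (limma). Ankrd1, Ankrd2 and Tcap have 1 transcript each, and the lengths of Xirp1 and Xirp2 were constant to within 0.1 bases.

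Levels of different genes can be compared only per length. The lengths used were the effective lengths of RSEM, averaged over isoforms by their estimated abundance. In the wildtype, Ttn led with 31270 ± 1270 normalised counts per kilobase (SD, n = 4 here and for the levels that follow). Its weighted length was 44310 bases in the wildtype, while its annotated transcripts run from 271 to 106824 bases. The level and rank of Ttn per kilobase depend on that estimate, and a longer length would lower them. Csrp3 followed at 19410 ± 441 and Myoz2 at 11260 ± 325. Tcap at 8515 ± 1420, Ankrd1 at 8275 ± 2150 and Ldb3 at 7270 ± 384 did not differ beyond their spread. Ankrd23 at 3628 ± 273, Xirp2 at 2228 ± 127 and Xirp1 at 914 ± 62.3 were lower, and Ankrd2 was last at 1.53 ± 1.46.

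In the knockout, Ankrd1 led the same scale at 40980 ± 6240 normalised counts per kilobase, above Ttn at 22850 ± 2200, with the same limit on the length of Ttn. Ttn and Csrp3, at 19660 ± 4490, did not differ beyond their spread. Myoz2 was at 10910 ± 1830. Xirp2 reached 7142 ± 1280, a level that did not differ beyond the spread from Tcap at 5844 ± 1590, and Tcap in turn was within the spread of Ldb3 at 5050 ± 631 and Ankrd23 at 4326 ± 906. Xirp1 at 1303 ± 347 and Ankrd2 at 5.81 ± 7.41 stayed at the end. Ankrd1 therefore went from a level within the spread of Tcap and Ldb3 to the highest of the 10 genes, and Xirp2 from below Ankrd23 to a level within the spread of Tcap.

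**Figure D4:**
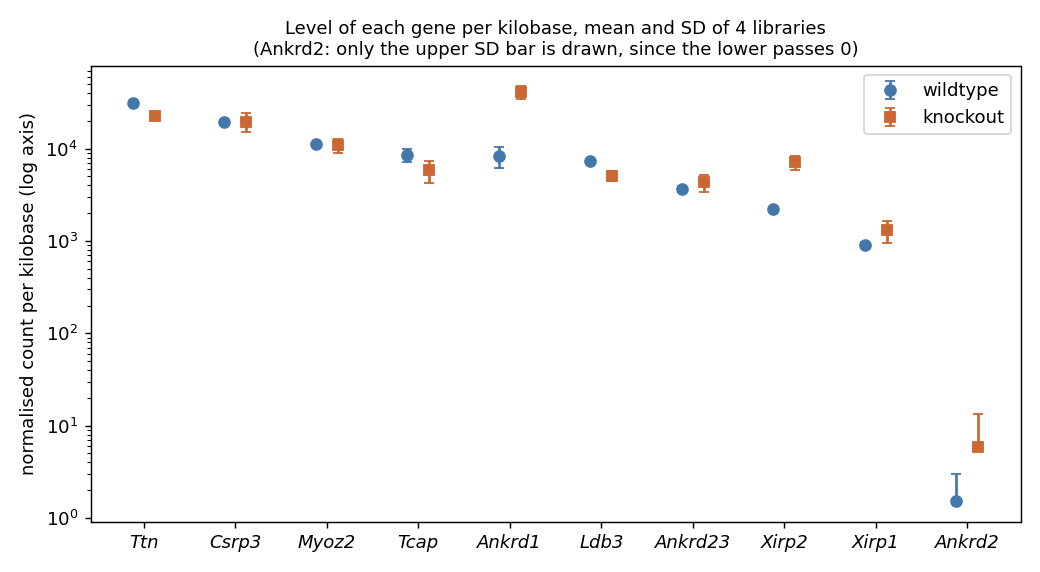
Level of each gene in normalised counts per kilobase (vertical log axis), ordered by the wildtype level, as the mean and SD of 4 wildtype (blue circles) and 4 knockout (orange squares) libraries. Ankrd1 rises from 8275 to 40980 and passes Ttn, whose level depends on its estimated isoform lengths, while Ankrd2 lies far below all others at under 10.

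The knockout libraries were more spread than the wildtype ones. Of the 9 genes above the floor of 3 counts, 8 had a higher coefficient of variation in the knockout, with Ankrd1 the exception at 26% in the wildtype and 15.2% in the knockout. Csrp3 had the widest contrast, with 2.27% and 22.9%, and Xirp1 had 6.82% and 26.6%. Across all genes averaging at least 1000 normalised counts, 87.2% also had a higher coefficient of variation in the knockout, a share close to that of the 10 genes. Knockout library 1 was the highest of the 4 knockout libraries for Ttn, Ankrd1, Ankrd2, Ankrd23, Ldb3, Xirp1 and Xirp2, and knockout library 3 was the highest for Csrp3, Myoz2 and Tcap.

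Other genes of the Z-disc and of titin binding were counted from lists of known partners. Of 24 Z-disc partners 23 could be tested, and 6 were higher and 9 lower in the knockout, with a median log2 fold change of -0.12 (65.2% called, against 33.7% of all genes and 58.1% of those with a mean of at least 1000 counts). Among the called genes averaging at least 100 normalised counts, the 3 largest changes were falls. Myot, which encodes myotilin, a Z-disc protein that binds filamin, fell from 921.7 ± 260 to 126.6 ± 28.6 normalised counts (SD, n = 4 each), or by -2.87 in log2 (DESeq2, adjusted p = 1.24e-33). Neb, the gene of the thin filament ruler nebulin, fell by 1.7 on the log2 scale (DESeq2, adjusted p = 4.92e-10), and Cmya5, the gene of myospryn, fell by 1.63 (DESeq2, adjusted p = 2.6e-48). All 3 had groups that did not overlap. The list split into 4 higher and 12 lower with total counts, and into 11 higher and 6 lower once mitochondrial rRNA was left out of them.

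Of 18 titin and M-band ligands, 7 were higher and 6 lower, with a median log2 fold change of 0.06 and 72.2% called, against 33.7% of all genes and 58.1% of genes averaging at least 1000 counts. With total counts the split was 7 higher and 9 lower, and without mitochondrial rRNA in them 11 higher and 4 lower. Fhl1 and Fhl2 encode LIM proteins that bind titin, and they moved apart. Fhl1 rose from 1438 ± 144 to 7916 ± 1170 normalised counts (SD, n = 4 each; log2 fold change 2.46, DESeq2, adjusted p = 4.78e-71), and Fhl2 fell from 22810 ± 1670 to 7869 ± 1030 (SD, n = 4 each; log2 fold change -1.54, DESeq2, adjusted p = 1.21e-36). Sqstm1, the gene of the autophagy receptor p62, which binds the titin kinase region through its partner Nbr1, rose by 2.15 on the log2 scale (DESeq2, adjusted p = 8.77e-48).

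Of 24 genes of the costamere, the attachment of the Z-disc to the cell membrane, and of mechanosensing, 8 were higher and 5 lower, with a median of 0.16 and 54.2% called, against 33.7% of all genes and 58.1% of genes averaging at least 1000 counts. The split turned with the scaling, to 3 higher and 8 lower with total counts and to 17 higher and 1 lower with total counts minus mitochondrial rRNA. Ccn2, the gene of connective tissue growth factor and a common readout of YAP and TEAD, rose from 912.2 ± 73.1 to 5178 ± 928 normalised counts (SD, n = 4 each), or by 2.5 in log2 (DESeq2, adjusted p = 6.88e-68). Itgb1bp2, the gene of melusin, an integrin-binding protein of muscle, fell by 1.1 on the log2 scale (DESeq2, adjusted p = 7.65e-13). Ccn1 was called higher at 0.82 (DESeq2, adjusted p = 0.00774), but its groups overlapped. Ccn2 is also made by fibroblasts, whose marker sum is given below.

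Of 15 genes of calcineurin signalling, the pathway to which Myoz2 is tied, 4 were higher and 5 lower, with a median of -0.15 and 60% called, against the same 33.7% and 58.1%. Under the same other scalings the split was 2 higher and 10 lower, and 6 higher and 1 lower. Rcan1, an inhibitor and target of calcineurin, rose from 1290 ± 201 to 3144 ± 1040 normalised counts (SD, n = 4 each), or by 1.29 in log2 (DESeq2, adjusted p = 1.78e-08). Ppp3cc, a catalytic subunit, was higher at 0.66 (DESeq2, adjusted p = 7.36e-06), and the transcription factor gene Nfatc2 was lower at -1.08 (DESeq2, adjusted p = 0.000454). The count of lower genes in this list was 3 without wildtype library 1 or 2 or knockout library 2, and 2 without wildtype library 4.

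Some marker genes of the cell types in a heart differed between the groups as well. The counts called are to be read against 33.7% of all genes and 58.1% of those averaging at least 1000 normalised counts. The 9 cardiomyocyte markers summed to 621900 to 679600 normalised counts per kilobase in the wildtype and 334200 to 442600 in the knockout, with 7 of 9 called lower and a median log2 fold change of -0.87. None of the 9 was at 0 in any library. Ttn, Ldb3 and Tcap, at -0.45 to -0.54, moved in the direction of those markers, and Ankrd1, Xirp2 and Xirp1 moved against it. Csrp3 at 0.02, Myoz2 at -0.05 and Ankrd23 at 0.25 were not called. The 6 fibroblast markers summed to 7044 to 7427 in the wildtype and 8060 to 20270 in the knockout (4 of 6 higher), and the 5 macrophage markers to 1831 to 2587 and 1589 to 4422 (3 of 5 higher). The 5 smooth muscle markers summed to 2935 to 3607 and 1056 to 2117 (3 of 5 lower), and 2 of 4 atrial markers were lower. Of the 5 endothelial and 4 erythroid markers 0 were called by DESeq2. The part of these shifts in the changes of the titin and Z-disc genes was not tested.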

How the data were processed

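RNA was measured in 4 wildtype and 4 Lrpprc knockout mouse hearts, grouped by the sample labels. The authors depleted cytoplasmic rRNA, made reverse-stranded paired-end libraries from random hexamers and ran RSEM 1.2.31 with bowtie2 against GENCODE M13 (mm10) with added mitochondrial sequences, which gave the deposited expected counts, TPM, and lengths in bases. The TPM values deposited by the authors served only as an alternative. A deposited table of the authors' own comparison (fold changes and p-values from DESeq2 1.16.1) and 8 columns of normalised counts whose names match no sample label were not used.

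Expected counts were rounded and fitted with DESeq2 1.42.0 in R 4.3.3, with genotype as the only term, effective lengths as an offset and Benjamini-Hochberg adjustment over all genes. Intervals are Wald intervals at 95%. Gene lengths were tested with limma 3.58.1 on a log2 scale, over genes averaging at least 100 normalised counts whose length varied. Ratios had a pseudocount of 1 added and were compared over all 70 assignments. Symbols and GRCm38 positions came from GENCODE M21, which matched 50339 of 50563 identifiers. Depth was 35218541 to 47743376 counts, and a group with at most 3 counts in every library was treated as at the floor, which covers counting error only. Chi-square per degree of freedom between replicates was at least 4.4, so no library was taken as a duplicate.

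The members and lists were chosen with earlier results of these data known. Named genes were the 10 members, Lrpprc and, of each list, the 3 largest called changes with a mean of at least 100. Tnnt3, Tnni2 and Atp2a1 were named in addition, after their values were seen. The fits were tested on simulated data, where 7.54% of DESeq2 calls, 6.53% of edgeR calls and 7.14% of limma calls were unchanged genes. DESeq2 and edgeR each recovered 86% of the 2-fold changes. The simulated counts took their spread from the wildtype libraries only and carried no length differences. Other fits used edgeR 4.0.16 (TMM) or dropped the length offset, and further alternatives were a filter of 10 counts in 4 libraries, no independent filtering, other scalings, a replicate block, leaving out each library, TPM, and a pseudocount of 0.1. Ankrd23 summed with Gm42417 and a stricter length filter were added after seeing the data.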

Additional observations from a re-analysis of the deposited data

Results flagged for a closer look

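The Ankrd1 count in wildtype library 3, 18390 normalised counts, lay far from the other wildtype libraries at 11110 to 11740, and the gap was 0.913 of the range of the group. Without that library the log2 fold change of Ankrd1 was 2.51 in place of 2.31.

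The Myoz2 count in knockout library 3, 13490 normalised counts, lay far from the other knockout libraries at 9726 to 10020, with a gap of 0.922 of the range. Both gaps exceed Dixon's 95% critical value for 4 samples. Chance alone flags about 1 in 20 groups, or 1.9 of the 38 groups examined, and 2 were found.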

How the results depend on the processing

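Of the 10 genes, Ankrd1 and Xirp2 kept their calls under every alternative run, and Ttn and Ldb3 under all but 1. Scaled by total counts without mitochondrial rRNA, 6 of the 10 genes were called higher and 0 lower, with log2 fold changes of -0.03 for Ttn, -0.1 for Ldb3, -0.13 for Tcap, 0.43 for Csrp3, 0.68 for Ankrd23 and 0.37 for Myoz2. The counts in the same scaling were 11 higher among Z-disc partners, 11 higher among titin and M-band ligands, 17 higher and 1 lower in the costamere list and 1 lower in the calcineurin list. Scaled by all counts, 5 of the 10 genes were called lower (Ttn, Ldb3, Tcap, Csrp3 at -0.29 and Myoz2 at -0.35), while Ankrd23 at -0.04 and Xirp1 at 0.21 were not called, and the counts were 3 higher and 8 lower in the costamere list and 2 higher and 10 lower in the calcineurin list. These scalings move every gene by the same amount per library, and they turned the split of all calls from 3628 higher and 3100 lower to 7917 and 1103 without mitochondrial rRNA and to 1924 and 5912 with it. The total without mitochondrial rRNA still held the mitochondrial mRNAs.

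The edgeR fit with TMM gave 0 for Csrp3, just below 0 before rounding, and called the same 6 genes (edgeR adjusted p of 0.0026 for Ttn, 0.032 for Tcap and 0.048 for Xirp1), while Ankrd2 did not pass its filter on low counts. Without independent filtering 3 calcineurin genes were lower. The ratio of Ankrd1 to Ankrd2 was 2.06 with TPM (exact permutation test, p = 0.0286) and 0.44 with a pseudocount of 0.1 (exact permutation test, p = 0.8), against 1.27, and that of Ankrd2 to Ankrd23 was 0.02 and 1.65 in the same alternatives, against 0.83. The cause was not tested.

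Same-numbered libraries did not deviate together (correlations -0.0291, -0.0515, -0.00854 and 0.0864), and only the libraries numbered 4 correlated best with their own number, so the numbers were not taken as pairs. With the replicate block, 5496 genes were called in place of 6728, Csrp3 was at -0.01, 3 calcineurin genes were lower, and the ratios of 2.09 (Ankrd1 to Ankrd23) and -1.2 (Xirp1 to Xirp2) had an exact p of 0.125, the smallest that 4 pairs allow.

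Leaving out 1 library at a time moved the number of higher genes among the 10 between 2 and 3 and of lower genes between 2 and 4, Tcap between -0.72 and -0.42, Xirp1 between 0.39 and 0.68, Csrp3 between -0.15 and 0.09, Myoz2 between -0.17 and 0, and the lower calcineurin genes between 2 and 5.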
